A study of Homo sapiens with 95 samples.

Results

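The genes described here encode the nuclear part of the mitochondrial respiratory chain and ATP synthase. They were chosen by symbol alone, as every listed gene whose name begins with NDUFA, NDUFB, NDUFC, NDUFS or NDUFV and a number, UQCR, COX4 to COX8 or ATP5, or is SDHA, SDHB, SDHC or SDHD. Of the 27978 symbols listed, 94 matched, and 84 had a mean of at least 1 raw read over the libraries, out of 14407 genes that reached this mean. The 84 members comprised 36 genes of complex I, 4 of complex II, 9 of complex III, 12 of complex IV and 18 of complex V, with COX7A2L placed between complexes III and IV. Some genes counted with a complex are not core subunits: ATP5IF1 is an inhibitor, ATP5S a coupling factor, COX7A2L a supercomplex factor and UQCRHL an intronless gene copy. The other 4 members belong to no complex. UQCRBP1 is a pseudogene, and NDUFB2-AS1, NDUFV2-AS1 and NDUFA6-DT are non-coding transcripts on the strand opposite a subunit gene.

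Complex I (NADH dehydrogenase) and complex II (succinate dehydrogenase) pass electrons from the oxidation of nutrients to ubiquinone. Complex III hands them to cytochrome c and complex IV to oxygen. The proton gradient built on the way drives complex V, the ATP synthase. The catalytic core of these machines is partly encoded by mitochondrial DNA, while most subunits are encoded in the nucleus, translated in the cytosol and imported. Airway epithelial cells meet inhaled oxidants directly, and several respiratory chain complexes are known targets of components of tobacco smoke.

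The cells were AALE, human bronchial epithelial cells that had been immortalized, in 8 forms. CRISPR knockout lines were targeted at FAT1, a giant protocadherin, or at CDKN2A, which encodes the cell cycle inhibitor p16 and the p53 activator ARF. Their control had received the Cas9 vector with GFP and no guide. The other lines carried an expression vector for NRF2 (gene NFE2L2, the master regulator of the oxidative stress response), the growth factor receptor FGFR1, the growth factor NRG1 or the kinase subunit PIK3CA, with a vector for the red fluorescent protein HcRed as control. Each line received the solvent DMSO, cigarette smoke condensate (CSC, 24 µg/ml), benzo[a]pyrene (BaP, 173 µM) or the tobacco nitrosamine NNK (490 µM). Whether a line was 1 clone is not given in the sources used here. The labels name no independently made lines of a genotype, so a perturbation and other differences of its line cannot be told apart. RNA was profiled by sparse full length (SFL) sequencing, a pooled RNA-seq of ribosomal RNA-depleted samples, in 95 libraries, 3 per combination except for CSC-treated FGFR1 with 2.

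Counted reads per library ranged from 287446 to 2116383, with a median of 934235, and 9 libraries had under 500000. A gene at 0 could still have had up to 3 reads, which is 1.42 to 10.4 CPM (reads scaled to a common library size) depending on the library, and such limits cover counting error only. All 10 bronchial epithelial markers tested had reads in every library (KRT5, a basal cell keratin, had a median of 3136 CPM). Of the markers of other cell types, CD3E was at 0 in 95 libraries, CDH5 in 94, SCGB1A1 in 93, PTPRC in 90 and COL1A2 in 80, while COL1A1 (median 25.8 CPM), CD68 (13.8) and MYH11 (7.45) were present. The perturbed gene separated its line from the control without overlap in all 6 cases, for example NFE2L2 at 1300 to 1820 CPM against 193 to 247, and FAT1 at 67.9 to 128 CPM against 262 to 454.

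Base composition mattered for the chemical comparisons below, so stretches of 4 members are shown first. Each is a 90-base piece of the longest coding exon other than the first, read 5′ to 3′ from GRCh37 (hg19), with G and C in capitals. ATP5F1D lies at chr19:1242455-1242544 (plus strand, exon 2 of 4 coding exons, 68.9% GC) and NDUFS7 at chr19:1390870-1390959 (plus strand, exon 5 of 8, 62.2% GC). NDUFA5 lies at chr7:123190551-123190640 (minus strand, exon 3 of 5, 32.2% GC) and NDUFB5 at chr3:179341708-179341797 (plus strand, exon 6 of 6, 42.2% GC).
ATP5F1D: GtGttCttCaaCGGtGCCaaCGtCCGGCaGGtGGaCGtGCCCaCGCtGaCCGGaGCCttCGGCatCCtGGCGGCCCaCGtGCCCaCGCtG
NDUFS7: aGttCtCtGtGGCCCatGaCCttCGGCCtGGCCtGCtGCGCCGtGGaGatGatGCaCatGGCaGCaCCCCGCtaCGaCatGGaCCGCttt
NDUFA5: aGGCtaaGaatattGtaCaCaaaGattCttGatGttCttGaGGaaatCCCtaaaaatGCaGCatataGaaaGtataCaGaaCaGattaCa
NDUFB5: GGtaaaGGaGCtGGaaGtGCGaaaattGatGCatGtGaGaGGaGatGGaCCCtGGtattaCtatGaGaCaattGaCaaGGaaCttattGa

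The members together took between 0.512% and 0.721% of a library's reads, with a median of 0.622%. Per length, ATP5F1B, the catalytic beta subunit of ATP synthase (chr12:57031959-57039768, hg19), was the most abundant at 306 CPM per kb of transcript. It was followed by UQCRH of complex III at 243, the ATP synthase inhibitor ATP5IF1 at 235, NDUFS5 of complex I at 207 and COX4I1 of complex IV at 195 CPM per kb. Complex II was uneven on this scale, with SDHB (the iron-sulfur subunit) at 106, SDHA (the flavoprotein) at 41.2, the membrane anchor SDHD at 33.5 and the other anchor SDHC at 29.5 CPM per kb. In bulk samples, fewer cells and less RNA per cell cannot be told apart.

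The widespread isoforms of complex IV were present and the tissue-restricted ones were at or near 0. NDUFA4 (first assigned to complex I and now to complex IV) had a mean of 106 reads per library, against 0.926 for its stress-related relative NDUFA4L2, which was at 0 in 42 libraries. COX4I2, the lung and hypoxia isoform of subunit 4, had a mean of 0.0526 reads and was at 0 in 90 libraries. The muscle isoform COX6A2 was at 0 in all 95, and the muscle isoform COX7A1 had a mean of 0.853 reads. The testis isoform COX6B2, with a mean of 1.07 reads, lay just inside the limit for members, at 0.726 CPM per kb against 121 for COX6B1. The least abundant member was NDUFA6-DT with a mean of 1.02 reads. ATP5F1E, a subunit gene of complex V, matched the pattern but was not a member. It had a mean of 0.547 reads and was at 0 in 56 libraries. Whether a count near 0 reflects the cells or the counting of reads was not tested for any of these genes. The 3 genes for the same mature ring subunit c of ATP synthase were at 79.9 (ATP5MC2), 41.1 (ATP5MC3) and 32.5 CPM per kb (ATP5MC1), with coefficients of variation of 27.5%, 24.3% and 33.4% over the 95 libraries. This order depends on the transcript lengths used, 632, 2587 and 646 bases. In reads per library ATP5MC3 was highest of the 3, with a mean of 101 against 46.8 for ATP5MC2 and 19.8 for ATP5MC1.

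Which members differed between a line and its control was asked with all 4 treatments in 1 limma-voom fit over all libraries, and differences are log2 fold changes ± SE, called at a Benjamini-Hochberg adjusted p under 0.05. The 4 overexpression lines share the HcRed libraries and both knockout lines share the GFP libraries. The median of all genes tested lay between -0.01 and 0.02 in every comparison.

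**Figure D1:**
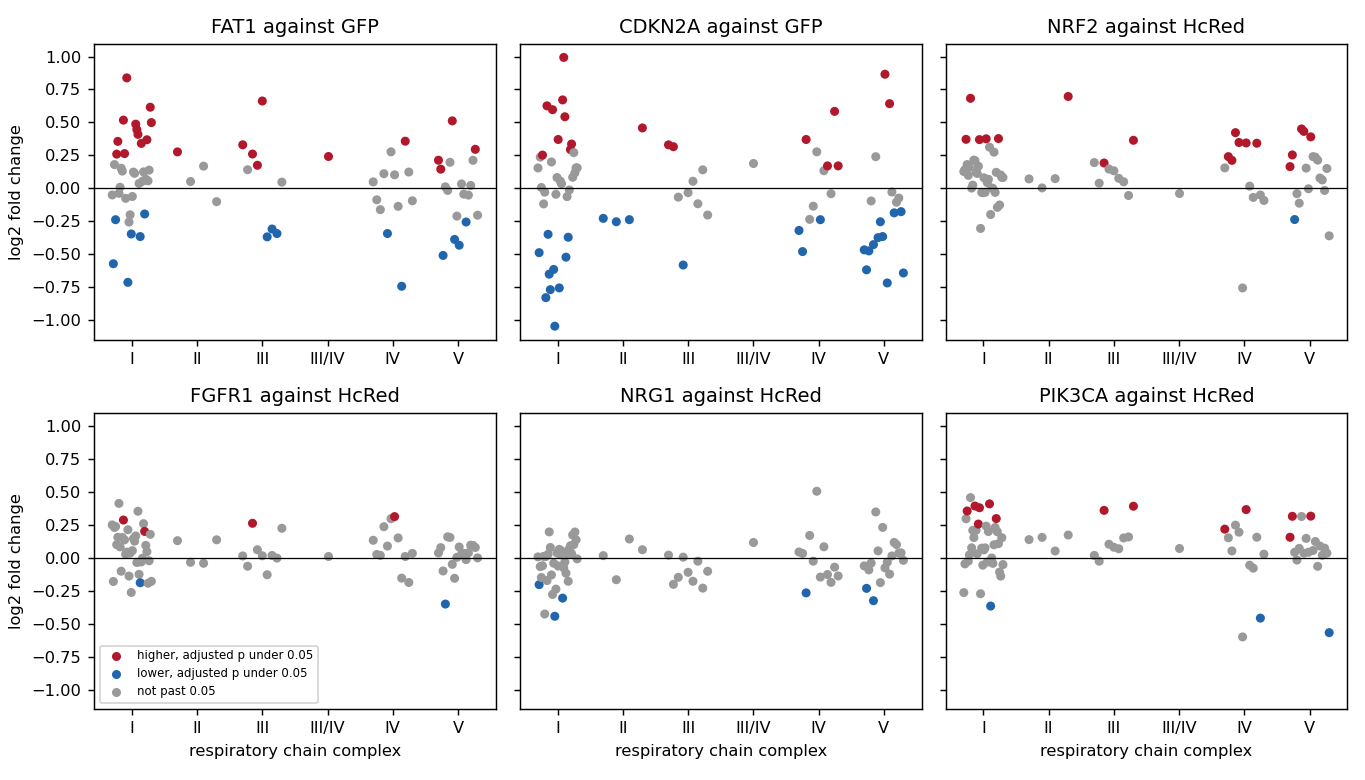
Log2 fold change of each member counted with a complex in the 6 lines against their control, by respiratory chain complex (x axis). Each point is a gene, colored by its call at an adjusted p of 0.05. NRF2 shows 19 members higher and 1 lower, while the points of CDKN2A and FAT1 spread widely on both sides of 0.

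With NRF2, members of complexes II to V rose, complex IV in 6 of its 12 genes, and 1 member fell. With a correction for GC and length, the calls of the complex I genes were lost, as were those of COX5B, ATP5MC1 and ATP5ME. NRF2 had 19 of 84 members higher and 1 lower than HcRed (12 libraries each), where 8.61% of all genes tested were higher and 11.6% lower. The median member was higher by 0.12, and 63 of 84 had a positive fold change. Complex IV had 6 of 12 genes higher and none lower, complex V 5 higher and 1 lower of 18, complex I 5 higher of 36, complex III 2 higher of 9 and complex II 1 higher of 4. The members took 0.683% ± 0.0293 (SD, n = 12) of reads in NRF2 against 0.618% ± 0.0228 (n = 12) in HcRed, with overlapping ranges of 0.616% to 0.721% and 0.579% to 0.658%. With the GC and length correction described below, 12 were higher and 3 lower, where 20.9% of all genes were called. None of the 5 complex I genes stayed called (the nearest was NDUFA3, adjusted p = 0.063). COX5B of complex IV (adjusted p = 0.065) and ATP5MC1 (0.074) and ATP5ME (0.055) of complex V also lost their calls. NDUFB2 of complex I (-0.37, adjusted p = 0.043) and ATP5F1D of complex V (-0.27, adjusted p = 0.045) were then lower.

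SDHD, which anchors succinate dehydrogenase in the inner membrane (chr11:111957548-111990739, plus strand, hg19), had the largest change. Its lowest, median and highest log2 CPM were 5.71, 6.13 and 6.42 in NRF2 and 5.04, 5.45 and 5.70 in HcRed. The groups did not overlap, and SDHD was higher by 0.70 ± 0.11 (adjusted p = 5.2e-08). SDHA, SDHB and SDHC, the other complex II genes, differed by 0.07, 0.00 and 0.07, and none passed the test (named after their values were seen).

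The c subunit gene ATP5MC2 was at 5.70, 6.11 and 6.53 log2 CPM in NRF2 and at 5.23, 5.68 and 6.05 in HcRed, a rise of 0.43 ± 0.11 (adjusted p = 0.0012) with overlapping groups. ATP5MC1 was higher by 0.45 ± 0.17 (adjusted p = 0.043). This call was lost when any 1 of 9 libraries was left out (HcRed BaP 2, CSC 1, DMSO 2 or NNK 2, or NRF2 BaP 1 or 3, DMSO 1 or 2, or NNK 2), with adjusted p up to 0.130. COX6A1, a subunit of complex IV, was at 5.57, 5.93 and 6.30 against 4.77, 5.51 and 5.80, higher by 0.42 ± 0.11 (adjusted p = 0.0018). Named after their values were seen, the complex IV genes COX6B1, COX6C, COX7C, COX5A and COX5B were higher by 0.35, 0.34, 0.34, 0.24 and 0.21. The member that fell was ATP5F1C, the gamma subunit of the ATP synthase rotor, by 0.24 ± 0.07 on the log2 scale (adjusted p = 0.0043).

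Promoters of 68 members were in the RefSeq set (GRCh38.p14, 250 bases before to 50 after the start), and 3 motifs were searched on either strand. The antioxidant response element core TGACNNNGC, the element that NRF2 binds, was in 12 of the 68 (17.6%) and in 16.1% of the windows of 27305 genes. The NRF1 motif (GCGCA, any base, GCGC), bound by a different factor, nuclear respiratory factor 1, was in 16 (23.5%) against 6.98%. The ETS motif CCGGAAGT, bound by GABP, was in 12 (17.6%) against 4.95%. Of the 16 members higher with NRF2 that had a window, 2 held the antioxidant core, 4 the NRF1 motif and 4 the ETS motif. Matches of different motifs can share bases, and a match is a description of the letters only. The 150 bases before the start are shown for SDHD (chr11:112086723-112086872, plus strand), which has the NRF1 and ETS motifs, ATP5ME (chr4:674277-674426, minus strand), which has the antioxidant core and, outside the stretch shown, the NRF1 motif, and UQCRQ (chr5:132866492-132866641, plus strand), which has the ETS motif. Capitals mark these motifs on either strand.
SDHD: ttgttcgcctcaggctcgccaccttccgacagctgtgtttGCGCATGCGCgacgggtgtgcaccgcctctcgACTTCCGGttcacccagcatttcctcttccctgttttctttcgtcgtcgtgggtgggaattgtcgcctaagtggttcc
ATP5ME: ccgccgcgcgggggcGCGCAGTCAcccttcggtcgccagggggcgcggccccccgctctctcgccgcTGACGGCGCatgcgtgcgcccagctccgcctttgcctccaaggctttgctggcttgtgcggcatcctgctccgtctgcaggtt
UQCRQ: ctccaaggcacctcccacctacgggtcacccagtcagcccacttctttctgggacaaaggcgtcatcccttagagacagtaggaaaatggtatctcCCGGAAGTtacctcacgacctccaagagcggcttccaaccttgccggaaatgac
The latter 2 genes, named after their values were seen, were also higher with NRF2, ATP5ME by 0.39 ± 0.12 (adjusted p = 0.013, and 0.055 after the GC and length correction) and UQCRQ, a small subunit of complex III, by 0.37 ± 0.09 (adjusted p = 0.0010).

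Partner genes of the chain, from lists chosen as the members were, moved in NRF2 as follows, where 8.61% of all genes were higher and 11.6% lower. Of 17 electron carriers and exchange partners, 7 were higher and none lower, among them ETFB (electron transfer flavoprotein) by 0.46 ± 0.11 and CYC1 (cytochrome c1, a complex III subunit whose symbol the rule does not match) by 0.42 ± 0.09. Of 47 assembly factors, 6 were higher and none lower, led by the complex I factors FOXRED1 (0.86 ± 0.19) and NDUFAF3 (0.60 ± 0.15). The mitochondrially encoded rRNAs RNR2 and RNR1 were higher by 0.28 ± 0.05 and 0.23 ± 0.06. Of 79 mitochondrial ribosomal protein genes, 4 were higher and 5 lower, and of 24 genes of the TCA cycle and pyruvate dehydrogenase, 3 and 4, with pyruvate carboxylase (PC) lower by 0.49 on the log2 scale. Of 16 biogenesis regulators, 2 were higher and 1 lower, the mitochondrial DNA packaging factor TFAM (-0.21 ± 0.07).

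PIK3CA also had more members higher than lower. It had 13 higher and 3 lower than HcRed (12 libraries each), where 12.7% of all genes were higher and 12.8% lower, and the median member was higher by 0.07. The share of members higher was thus near that of all genes, and the share lower was below it. ATP5F1B was at 9.25, 9.36 and 9.58 log2 CPM in PIK3CA and 8.85, 9.06 and 9.20 in HcRed. The groups did not overlap, and it was higher by 0.31 ± 0.04 (adjusted p = 4.5e-11). This gene was named after its values were seen. The rises with the largest folds were NDUFC1 by 0.41 ± 0.13 (adjusted p = 0.015), NDUFA8 by 0.39 ± 0.10 (adjusted p = 0.00073), both accessory subunits of complex I, UQCRQ by 0.39 ± 0.09 (adjusted p = 0.00024) and NDUFB11 by 0.38 ± 0.12 (adjusted p = 0.014). For each of these 4 genes the PIK3CA and HcRed libraries overlapped.

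The 3 members lower in PIK3CA were COX8A, ATP5S and NDUFC2. COX8A, a small subunit of complex IV (chr11:63742092-63744015, plus strand, hg19), was at 4.60, 5.29 and 5.96 against 5.31, 5.67 and 6.35 log2 CPM, lower by 0.46 on the log2 scale (SE 0.10, adjusted p = 7e-05). ATP5S, also called coupling factor B, had a fold change of -0.57 ± 0.19 (adjusted p = 0.016) and NDUFC2 of complex I one of -0.37 ± 0.11 (adjusted p = 0.0067). Of all genes, 12.7% were higher and 12.8% lower in PIK3CA. Among partners, 7 of 17 carriers were higher and none lower, including VDAC1, the outer membrane channel (0.50 ± 0.06), and cytochrome c, CYCS (0.46 ± 0.06). In the other lists, 16 of 79 mitochondrial ribosomal genes were higher and 1 lower, 5 of 47 assembly factors were higher and 1 lower, 4 of 24 TCA genes were higher and 1 lower, and the GABP subunit gene GABPB1 was higher by 0.90 ± 0.14 as the only regulator past the threshold. RNR1 and RNR2 did not pass in this line.

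In the CDKN2A knockout, 11 of the 18 ATP synthase genes were lower and 2 higher. Over all complexes it had 18 members higher and 28 lower than GFP (12 libraries each), where 28.5% of all genes were higher and 29.0% lower, so the share of members called was close to that of all genes. Complex I had 9 higher and 10 lower of 36, complex IV 4 and 3 of 12, and complex II 1 and 3 of 4. The member share was 0.559% ± 0.0238 (SD, n = 12) of reads, against 0.600% ± 0.0153 in GFP, a share weighted to the most abundant members. The log2 CPM of the median member was 5.82 ± 0.0674 against 5.74 ± 0.0779, while the median fold change of the members was -0.04.

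ATP5F1B was at 8.25, 8.44 and 8.57 log2 CPM in the CDKN2A knockout and 8.88, 9.03 and 9.26 in GFP. These groups did not overlap, and the gene fell by 0.62 on the log2 scale (SE 0.05, adjusted p = 2.8e-25). ATP5F1A, the alpha subunit that alternates with beta in the catalytic head, was at 7.92, 8.20 and 8.39 against 8.42, 8.66 and 8.75, again without overlap, with a change of -0.47 ± 0.05. Both were named after their values were seen. The complex V genes that rose were the membrane subunits e and g, ATP5ME by 0.87 ± 0.12 (adjusted p = 1e-10) and ATP5MG by 0.64 ± 0.11 (adjusted p = 1.6e-07).

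Within complex I, the accessory subunit gene NDUFB2 (chr7:140390577-140422590, plus strand, hg19) was at 3.59, 3.91 and 4.18 log2 CPM in the CDKN2A knockout and 4.30, 4.83 and 5.21 in GFP. The groups did not overlap, and it was lower by 1.04 on the log2 scale (SE 0.15, adjusted p = 2.6e-09). NDUFA5, NDUFA9 and NDUFB6 had fold changes of -0.83 ± 0.11, -0.77 ± 0.10 and -0.75 ± 0.11. In the other direction, NDUFC1 was at 4.74, 5.41 and 5.81 against 3.79, 4.47 and 4.91, higher by 0.99 ± 0.13 (adjusted p = 3.2e-11) with overlapping groups, and NDUFB9 was higher by 0.67 ± 0.09. Complex II was split as well, with SDHD higher by 0.46 ± 0.11 while SDHA, SDHB and SDHC had changes of -0.23, -0.25 and -0.24, each past the threshold. These 4 genes were named after their values were seen. UQCRC1, a core protein of complex III (chr3:48636435-48648409, minus strand, hg19), was at 6.52, 7.03 and 7.33 against 7.23, 7.62 and 7.83, a change of -0.58 ± 0.07 (adjusted p = 1.8e-13).

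The lists around the chain were also mixed in the CDKN2A knockout, where 28.5% of all genes were higher and 29.0% lower. Of the mitochondrial ribosomal genes 32 of 79 were higher and 13 lower, of the assembly factors 16 of 47 and 10, of the carriers 6 of 17 and 4, of the regulators 4 of 16 and 4, and of the TCA genes 7 of 24 and 9. NDUFAF4 (complex I assembly) was higher by 1.09 ± 0.16, COX18 (membrane insertion of a complex IV subunit) by 1.04 ± 0.14 and the ADP/ATP carrier SLC25A4 by 1.06 ± 0.12. PDK4, a kinase that shuts pyruvate dehydrogenase, had a change of -2.04 ± 0.35, and DLD, a subunit of that enzyme, one of -0.81 ± 0.06. RNR1 was higher, and RNR2 was not past the threshold.

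**Figure D2:**
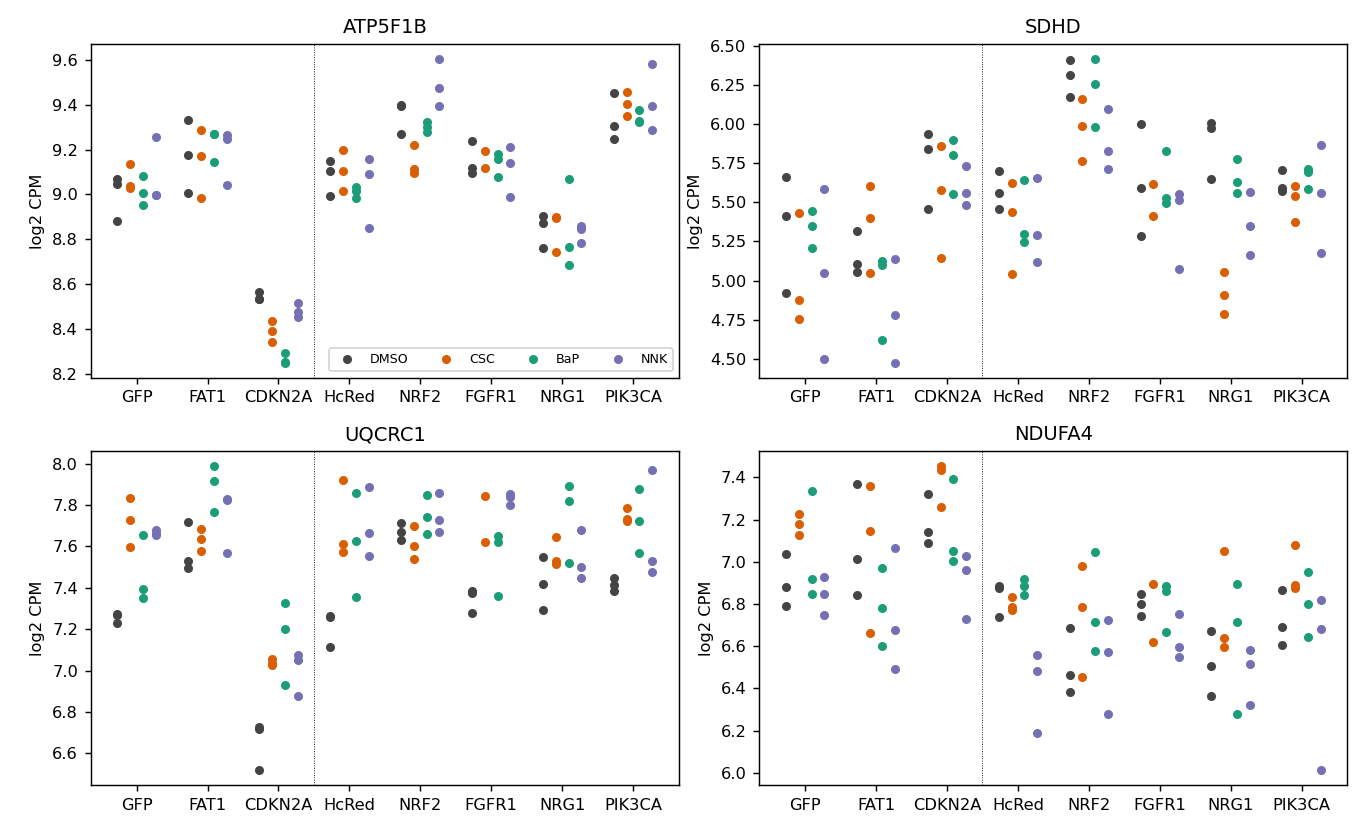
Log2 CPM of ATP5F1B, SDHD, UQCRC1 and NDUFA4 in each of the 95 libraries (points), by line (x axis) and colored by treatment, with a dotted line between the knockout and overexpression lines and their controls. ATP5F1B lies at 8.25 to 8.57 in the CDKN2A knockout and at 8.88 to 9.26 in its GFP control, and SDHD lies at 5.71 to 6.42 in NRF2 and 5.04 to 5.70 in HcRed.

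The FAT1 knockout line had 24 members higher and 15 lower than GFP (12 libraries each), where 23.7% of all genes were higher and 23.7% lower. Complex I had 12 genes higher and 6 lower of 36, complex III 4 and 3 of 9, complex V 4 and 4 of 18 and complex IV 1 and 2 of 12. NDUFB10, an accessory subunit of the membrane arm of complex I, was at 5.88, 6.24 and 6.48 log2 CPM in FAT1 and 4.52, 5.46 and 5.84 in GFP. The groups did not overlap, and it was higher by 0.84 ± 0.10 (adjusted p = 4.4e-12). NDUFA8 was at 5.92, 6.25 and 6.65 against 5.40, 5.75 and 5.89, also without overlap, higher by 0.52 ± 0.09. UQCRC2, the other core protein of complex III, was at 6.41, 7.14 and 7.45 against 6.19, 6.47 and 6.72, higher by 0.66 ± 0.08 (adjusted p = 1.1e-13) with overlap.

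COX7B, a complex IV subunit, fell in the FAT1 knockout. It was at 5.23, 5.69 and 6.21 log2 CPM against 6.22, 6.54 and 6.75 in GFP, without overlap, a change of -0.74 ± 0.09 (adjusted p = 1.6e-12). NDUFB11, NDUFA10 and ATP5F1C had changes of -0.71 ± 0.15, -0.57 ± 0.08 and -0.51 ± 0.07. NDUFV2, an iron-sulfur subunit of complex I, was higher by 0.62 ± 0.09, and the antisense transcript NDUFV2-AS1 by 1.10 ± 0.40 (adjusted p = 0.015). NDUFV2-AS1, whose mean count was 2.19, was named after its values were seen. The strand setting of the counting is not given in the sources used here, so reads of these partners cannot be told apart. Around the chain, CYC1 was higher by 0.91 ± 0.10 and FOXRED1 by 0.73 ± 0.19, while PDHA1, of the pyruvate dehydrogenase complex, and GPD2, the mitochondrial glycerol 3-phosphate dehydrogenase, had changes of -0.95 ± 0.08 and -0.87 ± 0.07. In the lists 25 of 79 mitochondrial ribosomal genes were higher and 13 lower, 9 of 47 assembly factors and 5, 7 of 17 carriers and 2, 4 of 24 TCA genes and 7, 2 of 16 regulators and 3, and RNR1 and RNR2 were both higher.

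The NRG1 and FGFR1 lines had few members called, as they had few of all genes. NRG1 had 6 members lower and none higher than HcRed (12 libraries each), where 5.57% of all genes were lower and 5.34% higher. In both directions 14 members had an unadjusted p under 0.05, and edgeR called 7 members and DESeq2 6 in both directions together. ATP5IF1, the protein that blocks ATP synthase from running in reverse, was at 6.17, 6.54 and 6.89 log2 CPM against 6.48, 6.91 and 7.34, a change of -0.33 ± 0.07 (adjusted p = 0.00031). ATP5F1B, named after its values were seen, had a change of -0.23 ± 0.04 (adjusted p = 9.1e-06) and COX5B one of -0.27 ± 0.07 (adjusted p = 0.0078). The calls of NDUFB2 (-0.44 ± 0.14, adjusted p = 0.025) and NDUFB9 (-0.31 ± 0.10, adjusted p = 0.022) were lost without single libraries, NDUFB2 without HcRed BaP 2, HcRed CSC 1, NRG1 CSC 2 or NRG1 NNK 2 (adjusted p up to 0.0723) and NDUFB9 without NRG1 DMSO 2 (0.0559). With the GC and length correction 1 was higher and 8 lower, where 12.9% of all genes were called. RNR1 and RNR2 were higher by 0.24 ± 0.05 and 0.30 ± 0.05 in NRG1. Of the lists, 3 of 17 carriers and 1 of 24 TCA genes were lower, 2 of 16 regulators and 2 of 79 mitochondrial ribosomal genes were higher, and no assembly factor of 47 passed.

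FGFR1 (11 libraries) had 4 members higher and 2 lower than HcRed, where 6.41% of all genes were higher and 6.33% lower. COX6C, a complex IV subunit, was higher by 0.31 ± 0.08 (adjusted p = 0.0054) and UQCRB by 0.26 ± 0.07 (adjusted p = 0.0089), both with overlapping groups. ATP5F1D, the delta subunit of ATP synthase, had a change of -0.35 ± 0.11 (adjusted p = 0.023), a call lost without FGFR1 BaP 2 or FGFR1 CSC 3 (adjusted p up to 0.0706). The calls of NDUFA8 (0.28 ± 0.10), NDUFS1 (-0.19 ± 0.07) and NDUFS5 (0.20 ± 0.07) were lost in 14, 18 and 45 of the 95 fits that left out 1 library, with adjusted p up to 0.197, 0.103 and 0.148. Leaving out FGFR1 BaP 2, FGFR1 CSC 3, HcRed CSC 1 or HcRed DMSO 3 each left 3 members called in place of 6. The split was 6 higher and 1 lower with the size factors of DESeq2, and 4 and 4 with the GC and length correction (16.1% of all genes called). In the lists 1 or 0 genes passed in each direction, among them GABPB1 (0.53 ± 0.14) and PC (-0.42 ± 0.14).

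Of the markers chosen for the bronchial epithelium, 8 of 10 were lower in PIK3CA, 7 in FGFR1, 6 in NRG1, 5 in NRF2, 7 in FAT1 and 5 in CDKN2A than in the control. In the same order, 12.8%, 6.33%, 5.57%, 11.6%, 23.7% and 29.0% of all genes were lower. Of the 4 markers of other cell types that could be tested, 3 were higher in FAT1, 2 in CDKN2A and 1 in PIK3CA, where another was lower. Under CSC, BaP and NNK, 4, 3 and 6 epithelial markers were higher than under DMSO and 5, 6 and 2 lower, and 2, 1 and 2 of the other markers were higher. The part of these shifts in the member results was not tested.

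The chemicals were compared with DMSO over the 8 lines in the same fit. CSC had 24 members higher and 22 lower (23 libraries against 24), where 27.1% of all genes were higher and 28.1% lower. BaP had 18 higher and 28 lower (24 against 24), where the background was 25.1% and 26.2%. NNK had 14 higher and 35 lower (24 against 24), where it was 25.3% and 26.7%, and the median member was at -0.09. Under NNK, complex V had 2 genes higher and 12 lower of 18, and complex I 7 and 13 of 36. The 3 comparisons share the DMSO libraries.

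Which member rose or fell followed the GC content of its transcript. Of the 17 members with at least 55% GC, CSC, BaP and NNK had 14, 12 and 10 higher and none lower, with medians of 0.43, 0.38 and 0.31. Of the 28 members under 45% GC, they had 1, 0 and 0 higher and 14, 17 and 23 lower, with medians of -0.16, -0.17 and -0.25. Spearman's rho between fold change and GC was 0.71, 0.72 and 0.81 over the 84 members, and 0.70, 0.72 and 0.77 over 13910 genes with a known GC content, as a description across genes that share their libraries.

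**Figure D3:**
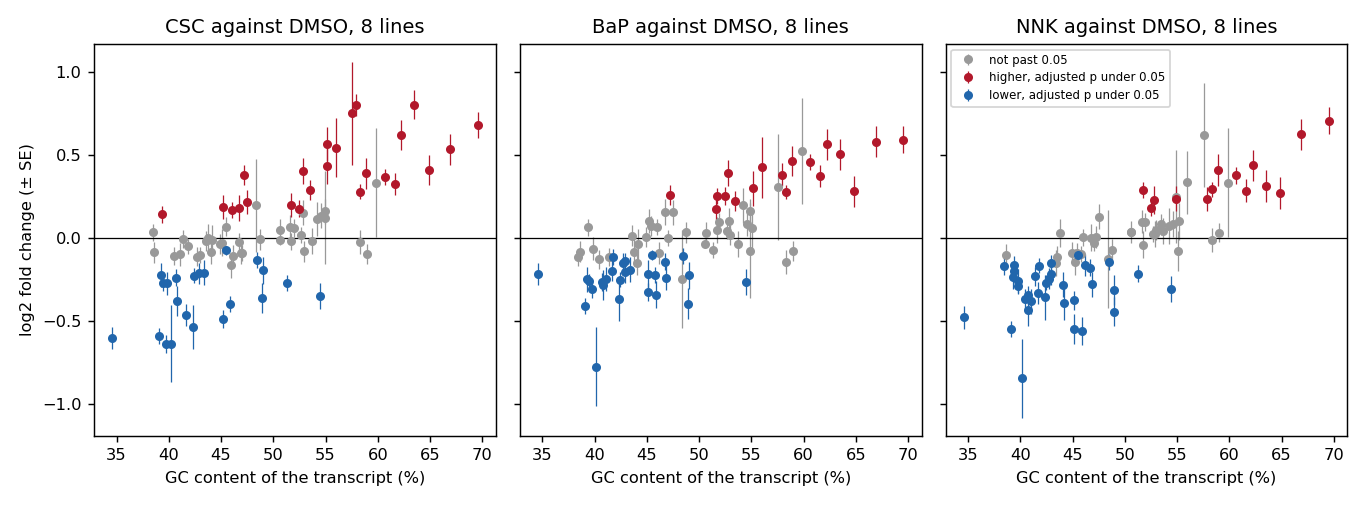
Log2 fold change against DMSO of the members (y axis) by GC content of the transcript in percent (x axis), for CSC, BaP and NNK. Points are members with SE bars, colored by their call at an adjusted p of 0.05, and rise from left to right in all 3 panels, with Spearman's rho of 0.71, 0.72 and 0.81.

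The DMSO libraries stood apart on this measure. The mean log2 CPM of GC-rich members minus that of GC-poor members ran from -1.61 to -1.16 in the 24 DMSO libraries, from -1.02 to -0.57 under CSC, from -1.32 to -0.43 under BaP and from -1.08 to -0.62 under NNK. Genes that are not members were also lowest under DMSO, with medians over libraries of -1.20 in DMSO and -0.70, -0.67 and -0.70 under the chemicals. DMSO did not overlap with CSC or NNK for the members. A change in the cells and a library-wide difference tied to base composition cannot be told apart here, because every line shows the shift between its DMSO libraries and the rest. With a correction for GC and length, CSC had 14 members higher and 19 lower, where 14.7% and 17.3% of all genes were. BaP had 5 higher and 15 lower, where 23.2% of all genes were called in either direction, and NNK 1 and 11, where 14.7% were.

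**Figure D4:**
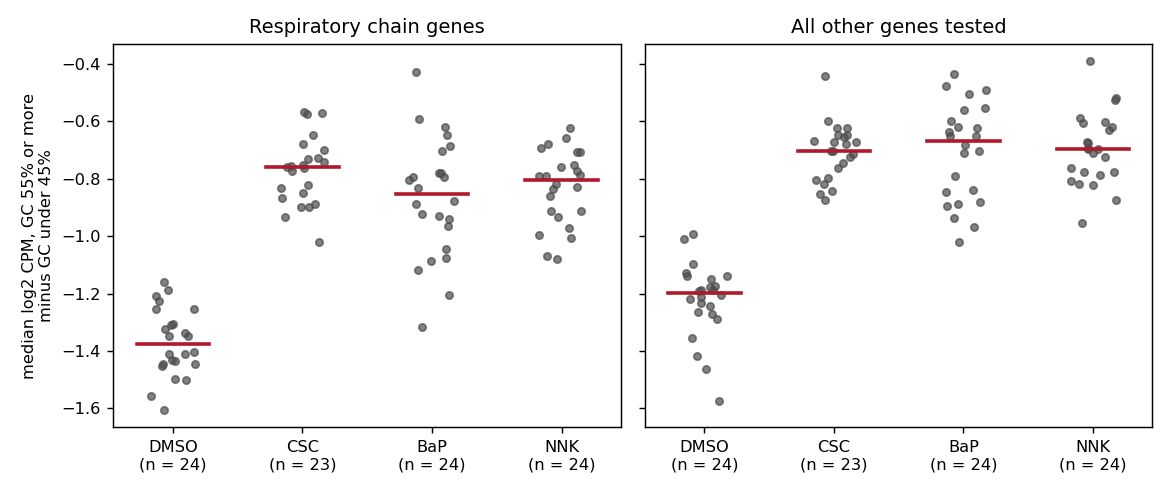
Mean log2 CPM of genes with at least 55% GC minus that of genes under 45% GC in each library (points, y axis), by treatment (x axis), for the members and for all other genes tested. The y axis label reads median, but means over genes are plotted. Red lines are medians over libraries. The DMSO libraries lie lowest, at -1.61 to -1.16 for the members.

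ATP5F1D (chr19:1241745-1244824, plus strand, hg19), whose GC-rich exon is shown above, was higher by 0.68 ± 0.08 under CSC, 0.59 under BaP and 0.70 under NNK (adjusted p at most 2.6e-10). After the correction its changes were 0.00, -0.02 and 0.12, and none passed. NDUFS7, an iron-sulfur subunit of complex I with a GC-rich exon, went from 0.58 to 0.05 for BaP and from 0.62 to 0.14 for NNK. The accessory subunit NDUFA11 went from 0.62, 0.56 and 0.44 to 0.18, 0.17 and 0.10 for CSC, BaP and NNK, and NDUFB11 from 0.41 to 0.17 for NNK. UQCRC1 was at 6.52, 7.38 and 7.72 log2 CPM under DMSO and at 7.03, 7.62 and 7.92 under CSC. It was higher by 0.28, 0.28 and 0.29 under the 3 chemicals, and its differences were -0.04, -0.03 and 0.00 after the correction, none past the threshold.

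COX8A and NDUFS8, the latter an iron-sulfur core subunit of complex I, kept part of their rise under CSC. COX8A was at 5.76, 6.07 and 6.95 log2 CPM under CSC and at 4.60, 5.33 and 6.08 under DMSO, higher by 0.80 ± 0.07 (adjusted p = 4.8e-22) and by 0.48 after the correction (adjusted p = 3.1e-11). NDUFS8 was at 5.37, 5.83 and 6.19 against 4.45, 5.04 and 5.58, higher by 0.80 ± 0.09 and by 0.33 after the correction (adjusted p = 0.00092). Under BaP, NDUFS8 was higher by 0.50, and by 0.07 after the correction, which did not pass.

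UQCRB, a small subunit of complex III, fell under every chemical. It was at 6.66, 7.02 and 7.54 log2 CPM under CSC and at 7.20, 7.66 and 8.17 under DMSO, with changes of -0.59 ± 0.05 for CSC, -0.41 for BaP and -0.55 ± 0.05 for NNK. After the correction these were -0.34, -0.16 and -0.31, each past the threshold. The accessory complex I gene NDUFB5 was at 5.49, 5.99 and 6.69 under CSC against 6.28, 6.68 and 7.23, a change of -0.64 ± 0.06, or -0.39 corrected. NDUFA5 (chr7:123177051-123197958, minus strand, hg19) had changes of -0.60 ± 0.07 under CSC and -0.48 under NNK, which became -0.23 (adjusted p = 0.0011) and -0.14 (0.129). Under NNK, ATP5MD, a small ATP synthase subunit, was at 4.36, 4.85 and 5.46, with a lowest value of 5.05 and a median of 5.37 under DMSO, a change of -0.56 ± 0.08, or -0.45 corrected (adjusted p = 1.1e-05). The complex I gene NDUFA1 had a change of -0.55 ± 0.09 under NNK, or -0.41 corrected. Under BaP, ATP5MD had a change of -0.34 ± 0.08. ATP5S had changes of -0.53 ± 0.13 under CSC and -0.37 under BaP (adjusted p = 0.017), the latter lost without FAT1 BaP 2 (adjusted p = 0.0591). After the correction these changes were -0.35 (adjusted p = 0.032) and -0.22 (0.255), so the BaP call was lost.

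UQCRHL, an intronless copy of UQCRH on chromosome 1 (chr1:16133664-16135843, minus strand, hg19), had a change of -0.40 ± 0.09 under BaP. UQCRH (chr1:46769370-46782448, plus strand) and UQCRHL are nearly identical in sequence, so the counting could have split their reads, and both values are uncertain. The same holds for the UQCRB pseudogene UQCRBP1.

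The partner lists under the chemicals had, in the order CSC, BaP and NNK, 5, 3 and 4 assembly factors of 47 higher and 18, 12 and 17 lower. Of all genes, 27.1%, 25.1% and 25.3% were higher in that order and 28.1%, 26.2% and 26.7% lower. Mitochondrial ribosomal genes had 19, 15 and 12 of 79 higher and 25, 25 and 24 lower. TCA genes had 6, 7 and 6 of 24 higher and 9, 9 and 8 lower. Carriers had 4, 5 and 3 of 17 higher and 5, 6 and 6 lower, and regulators 5, 3 and 5 of 16 higher and 6, 3 and 4 lower. POLRMT, the mitochondrial RNA polymerase, was higher by 0.77 ± 0.09, 0.76 ± 0.09 and 0.60 ± 0.09, and the nuclear receptor gene ESRRA by 0.69 ± 0.07 under CSC. LYRM7 (complex III assembly) had a change of -0.68 ± 0.06 under CSC, and COX20 and COX17 (complex IV assembly) of -0.67 ± 0.07 and -0.64 ± 0.16 under NNK. All partner values here are without the GC and length correction. ESRRA has 63.8% GC, and LYRM7, COX20 and COX17 have 36.7%, 39.0% and 46.7%. The part of base composition in these changes was not tested. RNR2 was lower under CSC (-0.41 ± 0.03) and BaP (-0.40 ± 0.03), while its difference under NNK (-0.07 ± 0.03) and those of RNR1 did not pass.

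Compared with each other, the chemicals showed little relation to GC content, with Spearman's rho over the members of 0.13 for CSC against BaP, -0.03 for CSC against NNK and -0.19 for BaP against NNK. CSC had 22 members higher and 3 lower than NNK, where 11.8% of all genes were higher and 11.9% lower, and the median member was higher by 0.05. Complex IV had 6 genes higher and 1 lower of 12, complex V 7 higher and none lower of 18, complex I 6 and 1 of 36, complex II 2 and 0 of 4 and complex III 1 and 1 of 9. With the GC and length correction the split was 16 higher and 9 lower, where 24.4% of all genes were called.

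**Figure D5:**
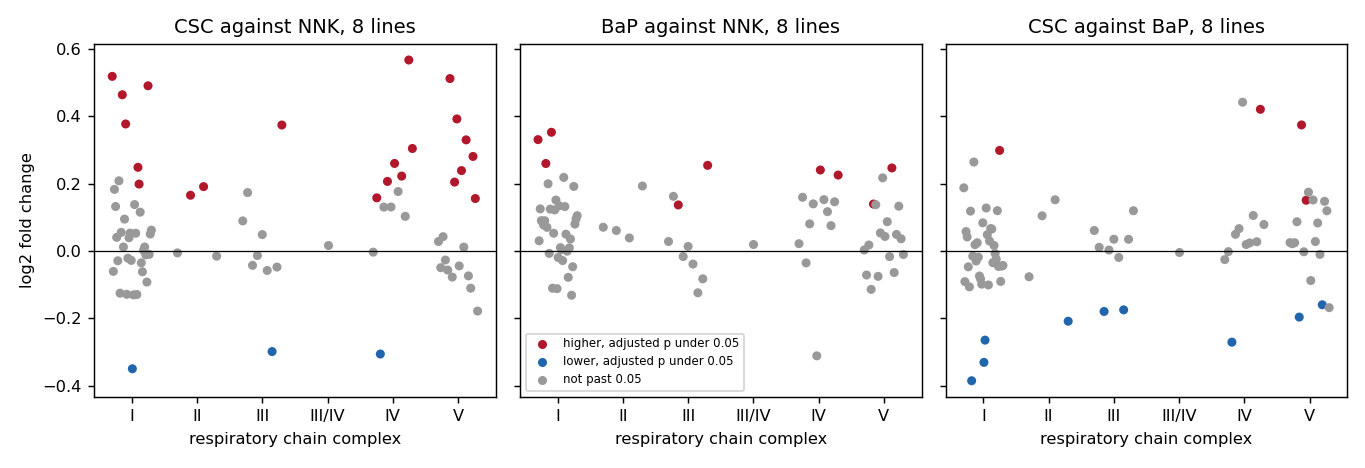
Log2 fold change of each member counted with a complex between chemicals (y axis) by respiratory chain complex (x axis), over the 8 lines. CSC shows 22 members above and 3 below NNK, and BaP shows 9 above and none below NNK.

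COX8A was at 5.76, 6.07 and 6.95 log2 CPM under CSC and 4.64, 5.59 and 6.24 under NNK, higher by 0.57 ± 0.07 (adjusted p = 9.3e-12), and in 8 of 8 lines. NDUFA1 was at 4.55, 5.38 and 5.80 against 3.89, 4.90 and 5.42, higher by 0.52 ± 0.09 (adjusted p = 5.7e-07). ATP5MC1 was higher by 0.51 ± 0.12 (adjusted p = 0.0003) and NDUFS8 by 0.49 ± 0.09 (adjusted p = 1.3e-05). All these groups overlapped, and after the correction the differences were 0.44, 0.39, 0.44 and 0.40. NDUFB5, COX5B and UQCRH were lower under CSC, with changes of -0.35 ± 0.05, -0.31 ± 0.05 and -0.30 ± 0.05. Against BaP, CSC had 4 members higher and 9 lower, where 8.81% and 7.59% of all genes were, with COX8A (0.42 ± 0.07, adjusted p = 4e-07), ATP5MC1 (0.37 ± 0.11) and NDUFS8 (0.30 ± 0.09) again on the higher side. ATP5MC3 was higher by 0.15 ± 0.05 (adjusted p = 0.027), a call lost without FAT1 BaP 1, FGFR1 BaP 2 or PIK3CA BaP 1 (adjusted p up to 0.0655). NDUFA5, NDUFB5, COX5B and NDUFB6 had changes of -0.39 ± 0.07, -0.33 ± 0.05, -0.27 ± 0.05 and -0.26 ± 0.07.

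BaP had 9 members higher and none lower than NNK, where 5.21% of all genes were higher and 6.52% lower. In both directions 22 members had an unadjusted p under 0.05, and edgeR and DESeq2 each called 7. NDUFB1, NDUFA1 and NDUFA5 of complex I were higher by 0.35 ± 0.10, 0.33 ± 0.09 and 0.26 ± 0.07, and UQCRQ by 0.25 ± 0.06. After the correction NDUFB1 (0.20, adjusted p = 0.167) and NDUFA1 (0.23, adjusted p = 0.083) did not pass. The corrected split was 5 higher and 3 lower, where 11.5% of all genes were called. Without PIK3CA NNK 1, 14 members were called in place of 9.

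NDUFA4 (chr7:10971570-10979780, minus strand, hg19) passed in 4 comparisons of treatments and in 1 of lines. Its lowest, median and highest log2 CPM were 6.36, 6.82 and 7.37 under DMSO, 6.45, 6.89 and 7.45 under CSC, 6.28, 6.87 and 7.39 under BaP and 6.01, 6.64 and 7.07 under NNK, with overlap throughout. NNK was lowest, with CSC higher by 0.30 ± 0.05 (adjusted p = 1.3e-06) and BaP by 0.23 ± 0.05 (adjusted p = 0.001), each in 8 of 8 lines. Against DMSO, CSC was at 0.14 ± 0.05 (adjusted p = 0.011), BaP at 0.06 ± 0.05 (0.30) and NNK at -0.16 ± 0.05 (0.0083). After the correction CSC was at 0.38 (adjusted p = 3.1e-11), BaP at 0.27 (1.1e-05) and NNK at 0.08, which was not past the threshold. Among the lines the CDKN2A knockout passed, higher than GFP by 0.17 ± 0.07 (adjusted p = 0.031). UQCRC1 differed among the lines in the CDKN2A knockout, as above, and in FAT1, where it was higher by 0.18 ± 0.06 (adjusted p = 0.012) and by 0.03 after the correction.

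Among the ATP synthase c subunit genes, ATP5MC1 was higher under CSC than DMSO by 0.43 ± 0.11 (adjusted p = 0.0004), while ATP5MC2 was at 0.16 ± 0.07 (0.057) and ATP5MC3 at 0.03 ± 0.05 (0.57). After the GC and length correction, ATP5MC3 was the one that passed under CSC, at 0.31 (adjusted p = 2.7e-07). ATP5MC1 was then at 0.23 (0.089) and ATP5MC2 at -0.04 (0.69). Under NNK, ATP5MC2 was higher by 0.24 ± 0.07 (adjusted p = 0.0049) and ATP5MC3 lower, at -0.17 ± 0.05 (0.0043). ATP5MC1 and ATP5MC2 have 55.1% and 54.9% GC and ATP5MC3 has 38.5%. Without the correction, COX4I1, COX6A1 and ATP5F1B did not pass against DMSO under any chemical. With it, ATP5F1B was lower under CSC (-0.08, adjusted p = 0.0092) and BaP (-0.10, adjusted p = 0.0014).

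Whether a chemical's effect on a member differed between the 8 lines was asked with interaction terms over the 32 combinations. No member passed 0.05 for CSC, BaP or NNK in limma-voom, where 0.882%, 0.236% and 0.0625% of all genes did, and edgeR also called 0. At an unadjusted p under 0.05 there were 9, 2 and 1 members. UQCRC1 had the smallest p for CSC (0.00265, adjusted 0.148), COX7B for BaP (0.0155, adjusted 0.670) and UQCR10 for NNK (0.0345, adjusted 0.727).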

How the data were processed

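SFL libraries of AALE cells were sequenced as single reads. Per the submitters' processing notes and the study's methods, reads were trimmed with Cutadapt 1.12, checked with FastQC 0.11.5, aligned to hg19 with STAR 2.5.2b and assigned to RefSeq genes with featureCounts. The authors deposited raw whole-number counts per gene, with no normalization. The strand setting is not given in the sources used here. Groups and replicate numbers were taken from the sample labels.

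Counts of 14407 genes with a mean of at least 1 were normalized with TMM (edgeR 4.0.16, R 4.3.3), and limma 3.58.1 with voom was fitted with line and treatment as additive terms over 95 libraries, with Benjamini-Hochberg adjustment over all genes and a threshold of 0.05. Interactions were F tests among 32 group means. Log2 CPM levels used a prior count of 2. The study calls the replicates biological, and p-values measure the spread between these libraries.

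As alternatives, the fits were repeated with the quasi-likelihood test of edgeR, with DESeq2 1.42.0 or its size factors, with other count filters, a loess correction for GC content and length (span 0.3), the replicate number as a block, subsets of samples and leaving out libraries. Leaving out libraries under 500000 reads was added after seeing the data. Deviations of same-numbered libraries from their group means had a mean correlation of 0.0062 over 160 pairs of groups, and in 0 of these did every pair exceed 0.1, so the numbers were not taken to pair libraries. No 2 libraries were identical (0 pairs), and the fits were tested on simulated data.

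Of the listed symbols, 25085 (89.7%) were matched to GENCODE models on GRCh37, including all 84 members. Promoters are RefSeq windows on GRCh38.p14. Members, lists and partner genes were chosen with earlier results of these data known. Named are NDUFA4, UQCRC1, tissue isoforms, the perturbed genes, the up to 4 largest rises and 4 largest falls per comparison among members past 0.05 whose mean count reached 10, and up to 2 genes per list and comparison. Any other member named with its values was chosen after they were seen. The study's microarray, 3′DGE and full coverage data were not analysed here.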

Additional observations from a re-analysis of the deposited data

Results flagged for a closer look

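None of the 84 members was singled out by the interaction tests. Among the 10 bronchial epithelial markers, the CSC effect differed between the 8 lines for 7 (ITGB4, KRT14, KRT17, KRT5, KRT6A, LAMB3 and TP63), with adjusted p from 5.5e-08 for KRT14 to 0.0143 for TP63 in the limma-voom interaction test. The BaP effect differed between lines for 3 of the 10, with adjusted p of 0.000516 for KRT14, 0.00905 for KRT17 and 0.0221 for KRT5. These are keratins, adhesion genes and a transcription factor of basal airway cells. Their part in the member results was not tested.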

How the results depend on the processing

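Counts of members called kept their leading direction under edgeR, DESeq2, DESeq2 size factors and a mean count of at least 10, where FGFR1 went from 4 higher and 2 lower to 6 and 1 with size factors. With all genes that have a read, and also without libraries under 500000 reads, FGFR1 had 3. The GC and length correction gave 20 for BaP and 12 for NNK against DMSO. Fits of the control lines alone gave 30 for CSC, 12 for BaP and 22 for NNK against DMSO, 5 for CSC against BaP, 8 for CSC against NNK and 3 for BaP against NNK, and fits of the DMSO libraries alone gave 20 for FAT1, 28 for CDKN2A, 7 for NRF2, 5 for PIK3CA and 0 for FGFR1 and NRG1 (7 and 10 at an unadjusted p under 0.05), with fewer samples in each. The share of all genes called is not given for these subsets or for the fits below with libraries left out. These counts alone therefore do not set the members apart from other genes.

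With libraries or replicates left out, the counts were 39 to 49 for CSC, 31 to 50 for BaP and 38 to 50 for NNK against DMSO, 5 to 14 for CSC against BaP, 19 to 27 for CSC against NNK, 3 to 14 for BaP against NNK, 29 to 41 for FAT1, 37 to 48 for CDKN2A, 6 to 22 for NRF2, 1 to 7 for FGFR1, 2 to 9 for NRG1 and 10 to 18 for PIK3CA, and 0 for each interaction. The low value of NRF2 came without replicate 1 in every group, and single libraries gave 15 to 22. FGFR1 without replicate 1 in every group had 0 higher and 1 lower, which turns its leading direction.

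Of 81 named calls, 79 were kept under edgeR, 79 under DESeq2 and 66 under the GC and length correction, and when each library was left out in turn, 7598 calls were kept and 97 lost. With the control lines alone 23 calls were kept and 20 lost, with DMSO libraries alone 18 kept, 19 lost and 1 turned, and without a replicate number in every group 14 to 17 of 81 were lost. Among these calls, signs turned for ATP5F1D under BaP with the correction (-0.0153, adjusted p = 0.919) and for NDUFS5 in FGFR1 with DMSO libraries alone (-0.0541, adjusted p = 0.923). NDUFA4 and UQCRC1, not among the 81, also turned with the correction, NDUFA4 to 0.08 under NNK and UQCRC1 to -0.04 under CSC and -0.03 under BaP, none past the threshold. The cause was not tested. With the replicate number as a block, 46 members were called for CSC against DMSO and 5 for FGFR1, and NDUFS5 in FGFR1 was the 1 named call lost. Depth limits the lowest members, since a gene at 0 could have had up to 10.4 CPM in the smallest library.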
